A study of Mus musculus with 8 samples.

Results

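The ion channel genes described here are the protein-coding mouse genes whose symbols start with Kcn (potassium channels), Cacn (calcium channels) or Scn followed by a digit (sodium channels), less 1 gene that is not analysed here. They number 133 of the 21900 protein-coding genes on the assembly, and what was measured at them is binding of the transcription factor Bcl11b, not their expression. An interval of the deposited tables was counted for a channel gene when that gene had the nearest protein-coding gene body, within 100 kb of the interval's midpoint. By this rule 404 of the 63098 tested intervals, each 201 bp long, belonged to 76 channel genes, and the remaining 57 channel genes had none. Before the filter on low counts the numbers were 684 of 93708 intervals and 102 genes, and the filter removed 40.9% of channel intervals against 32.7% of all intervals.

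Bcl11b was immunoprecipitated from cross-linked mouse thymocytes, and the bound DNA was sequenced (ChIP-seq). The wild type group was Bcl11b+/+ and the other group was Bcl11b+/N440K, heterozygous for an allele that exchanges an amino acid of Bcl11b and keeping a wild type copy, with 3 ChIP libraries each. No drug, age or strain is named in the labels, and whether the libraries came from separate mice is not stated. The p-values therefore reflect library-to-library spread alone, and that spread can be technical. The 2 input libraries of wild type thymocytes were not analysed here. Read totals in intervals ran from 1787899 to 2661343 per library. All 13 thymocyte marker genes examined had tested intervals (125 in all), against 5 of 9 neuronal, 3 of 5 B cell and 1 of 4 myeloid markers, and binding at a gene does not show that the cells express it.

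Voltage-gated channels are membrane pores that open when the voltage across the membrane changes, and auxiliary subunits set where and how they open. In T cells, potassium efflux through a voltage-gated channel and a calcium-activated channel keeps the membrane negative inside, which sustains the calcium entry that follows stimulation of the T cell receptor. The label "voltage-gated" covers the symbols only in part. The rule also takes 15 inward rectifier (Kcnj) and 14 two-pore-domain (Kcnk) potassium channel genes, whose pores lack the voltage sensor, 12 genes of calcium- or sodium-activated potassium channels and their subunits, and many auxiliary subunits.

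Promoter windows of 300 bases (250 before to 50 after a listed start; RefSeq, GRCm38.p6, whose coordinates are those of mm10) were found for 98 of the 133 genes. Of their 132 windows, 15.2% overlapped a tested interval, against 44.3% of all 21263 protein-coding windows. The windows below are those of Kcnj8 and Kcnc1, whose summed signal was higher in N440K thymocytes, with the bases inside a tested interval in capitals. The third, of Scn8a, is shown for its pair of TGACCA words, in capitals.
Kcnj8: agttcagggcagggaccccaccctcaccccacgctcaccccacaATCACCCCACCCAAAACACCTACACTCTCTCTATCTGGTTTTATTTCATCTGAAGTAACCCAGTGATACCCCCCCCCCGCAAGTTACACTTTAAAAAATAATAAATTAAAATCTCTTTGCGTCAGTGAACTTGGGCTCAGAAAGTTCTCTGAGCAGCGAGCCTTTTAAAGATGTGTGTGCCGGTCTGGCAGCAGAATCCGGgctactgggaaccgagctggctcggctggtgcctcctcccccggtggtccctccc
Kcnc1: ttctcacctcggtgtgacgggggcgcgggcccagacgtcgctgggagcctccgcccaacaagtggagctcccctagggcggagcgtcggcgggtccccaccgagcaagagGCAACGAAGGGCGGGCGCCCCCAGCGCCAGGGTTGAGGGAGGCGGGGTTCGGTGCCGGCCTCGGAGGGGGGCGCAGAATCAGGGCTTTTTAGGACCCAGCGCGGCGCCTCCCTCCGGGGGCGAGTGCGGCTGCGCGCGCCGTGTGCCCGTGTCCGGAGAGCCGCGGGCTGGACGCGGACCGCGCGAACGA
Scn8a: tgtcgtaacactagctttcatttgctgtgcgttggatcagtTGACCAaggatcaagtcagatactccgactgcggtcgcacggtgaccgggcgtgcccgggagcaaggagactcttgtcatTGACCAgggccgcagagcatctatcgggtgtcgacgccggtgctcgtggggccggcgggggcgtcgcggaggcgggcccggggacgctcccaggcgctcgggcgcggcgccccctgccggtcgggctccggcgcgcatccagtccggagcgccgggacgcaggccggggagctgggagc
The Kcnj8 window is chr6:142571565-142571864 on the minus strand, the Kcnc1 window chr7:46396218-46396517 on the plus strand and the Scn8a window chr15:100870395-100870694 on the plus strand.

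Six-letter words were counted on both strands of these windows as a description. TGACCA, the core word of the paralog BCL11A, occurred in 9.09% of channel windows and 12.5% of all windows. Among windows that overlapped a tested interval it occurred in 3 of 20 channel windows (15.0%) and in 10.3% of all. The ETS word CCGGAA was found in 6.06% of channel windows and 18.7% of all windows, and the E-box CAGCTG in 27.3% and 15.6%. For the E-box CAGGTG the shares were 22.0% and 19.7%, for the RUNX word TGTGGT 12.9% and 15.0%, and for the TCF/LEF word CTTTGA 9.09% and 14.4%. Among windows that overlapped a tested interval the shares were 5.0% of channel windows and 33.7% of all for CCGGAA, 2 of 20 channel windows and 13.8% of all for CAGCTG, and 5.0% and 17.4% for CAGGTG, so the order of the E-box shares turned. No test of these shares was made. At the Scn8a window, an interval at chr15:100870422-100870622 contains both TGACCA words, which start at bases 42 and 122 of the window. It had 8.05, 8.65 and 5.58 CPM (reads in the interval scaled by the size of the library) in the wild type libraries and 3.88, 3.05 and 5.73 CPM in the N440K libraries, which overlap. Its log2 fold change of -0.78 did not pass the genotype test (edgeR adjusted p = 0.406).

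Where the channel intervals lay was compared with all tested intervals. The share inside a gene body was 69.3%, against 64.2% of all tested intervals within 100 kb of a gene. Within 1 kb of a gene end lay 22.5% of channel intervals (95% exact binomial interval 18.5% to 26.9%, for counting error only), against 34.5% of all, and within 5 kb lay 43.8% against 51.3%. Inside a gene body and away from the ends of any protein-coding gene lay 54.2% of channel intervals at the 1 kb limit (40.1% of all). At the 5 kb limit the share was 38.6% (28.8% of all). Exons and introns were not told apart. Binding was also spread unevenly over the genes: 19 genes had 1 tested interval, while 13 genes with 10 or more held 184 of the 404. Gene length and the number of intervals were barely related across the 133 genes (Spearman rho 0.09, given as a description). Signal at channel intervals was lower than at large, with a median wild type level of 9.34 CPM against 11.9 CPM.

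The strongest Bcl11b binding at channel genes did not pass the genotype test. It lay at Cacnb1, which encodes a beta subunit that brings calcium channels to the membrane, and at Kcna2, which encodes a voltage-gated potassium channel of the Shaker family. The Cacnb1 interval chr11:98000406-98000606, just outside the gene, had 83.0, 69.6 and 82.4 CPM in the wild type libraries and 73.1, 73.2 and 78.1 CPM in the N440K libraries. The log2 fold change there was -0.06 ± 0.12 (SE; edgeR adjusted p = 0.892), and the genotypes overlap. At Kcna2, the interval chr3:107090212-107090412 had 59.5, 53.9 and 58.8 CPM in wild type and 59.2, 52.5 and 58.8 CPM in N440K, nearly the same range. All 10 of the strongest channel intervals, which also include 2 more at Cacnb1, 1 more at Kcna2 and 1 each at Kcnq5, Cacna1b, Kcnj15, Kcnn4 and Cacna1d, were at or above percentile 97.0 of all tested intervals. Their log2 fold changes ran from -0.25 to 0.17. By edgeR none passed at an adjusted p of 0.05 (smallest 0.474) or at an unadjusted p of 0.05, and DESeq2 and limma voom also called 0. Over all tested intervals edgeR called 1.14%, and 12.7% had an unadjusted p under 0.05. At such a share, 0 of 10 calls does not set these intervals apart.

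**Figure D1:**
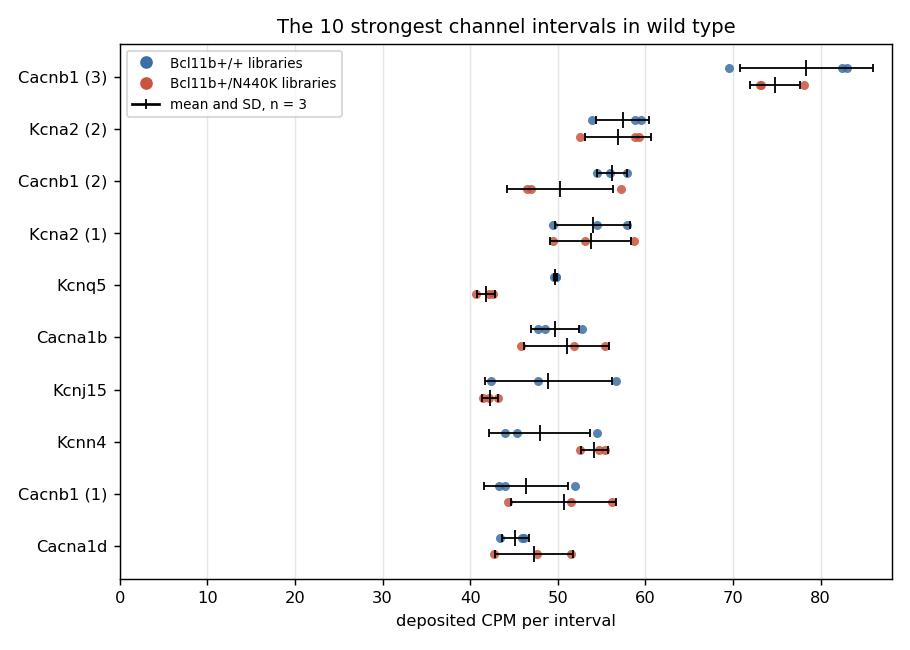
Deposited CPM (x axis) of the 10 channel intervals with the highest wild type mean, 1 point per library, with the mean and SD of 3 libraries per genotype. Numbers in brackets tell intervals of 1 gene apart, in rising order of wild type mean. The genotypes overlap at 9 of the 10; at Kcnq5 the wild type libraries (49.6 to 49.8 CPM) all lie above the N440K libraries (40.6 to 42.6 CPM).

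Of a list of 22 channel genes that have been studied in T cells, 19 had a tested interval. None of the 19 strongest intervals of these genes passed the test by edgeR, DESeq2 or limma voom, and 1 had an unadjusted edgeR p under 0.05. Over all tested intervals the edgeR shares were 1.14% and 12.7%, so 0 calls among 19 does not set these strongest intervals apart. Weaker intervals of the list genes did pass. Among all 162 tested intervals of the 19 genes, edgeR called 2 lower, both in Cacna1e, and 1 higher, near Kcna3. The shares over all tested intervals were 0.681% lower and 0.46% higher, and the median log2 fold change of the 162 was -0.06. Kcna3 encodes the voltage-gated channel that sets the resting potential of many T cells. Its strongest interval, chr3:107036535-107036735, lies in the gene body and had 39.0, 25.9 and 31.8 CPM in wild type and 25.5, 39.0 and 32.3 CPM in N440K libraries. Kcnn4, which encodes the calcium-activated channel that partners it, had 44.0, 45.3 and 54.5 CPM in wild type and 55.4, 52.5 and 54.7 CPM in N440K at chr7:24373699-24373899. At both genes the genotypes overlap. The interval with the unadjusted p under 0.05 was that of Cacnb2, another beta subunit gene, at chr2:14989507-14989707. It had 27.9, 22.6 and 29.2 CPM in wild type and 22.7, 14.6 and 19.3 CPM in N440K libraries, with log2 fold change -0.48 ± 0.21 (SE; edgeR adjusted p = 0.294), with 1 N440K library just above the lowest wild type library.

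The genotype test called 10 of the 404 channel intervals, 2.48%, where it called 1.14% of all tested intervals (edgeR, p under 0.05 after Benjamini-Hochberg adjustment). Of these 8 were lower in N440K thymocytes, where the share over all tested intervals was 0.681%, and 2 were higher, where it was 0.46%. At an unadjusted edgeR p under 0.05 there were 59 channel intervals, which is 14.6% against 12.7% of all. They were 39 lower and 20 higher ones, and over all tested intervals 6.52% were lower and 6.16% higher at that p. At 46 lower and 27 higher channel intervals the genotypes did not overlap, 18.1% against 17.3% of all (8.95% lower and 8.34% higher). DESeq2 called 0 channel intervals (smallest adjusted p = 0.115; 29 at an unadjusted p under 0.05) and 0.0951% of all. Limma voom called 2, in Cacna1a and near Kcnj8, and 0.504% of all. Each of the 10 edgeR calls was lost when at least 1 of the 6 libraries was left out. The filter on low counts, applied by group, could be met by the libraries of 1 genotype alone. The lower calls at Cacna1e, Cacna1b, Cacna1g and Cacna2d4 met it through wild type, and the higher call near Kcna3 through N440K. The direction of these calls is therefore not separate from the filter. Without the filter edgeR called 10 channel intervals (7 lower and 3 higher), 9 of them among these 10.

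**Figure D2:**
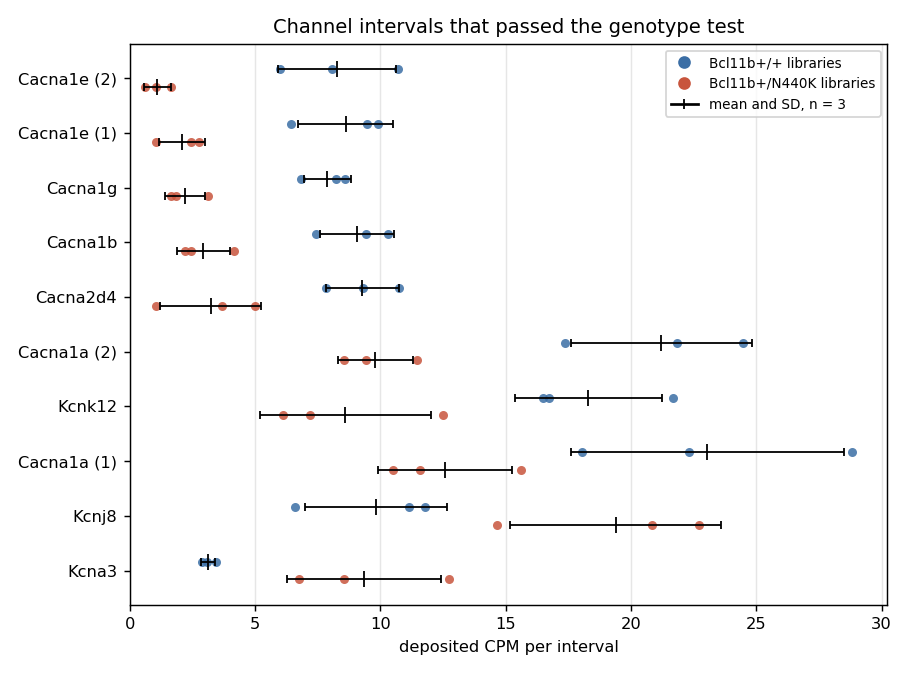
Deposited CPM (x axis) of the 10 channel intervals that passed the edgeR test, 1 point per library, with the mean and SD of 3 libraries per genotype. Numbers in brackets tell intervals of 1 gene apart, from the highest to the lowest log2 fold change. The 8 upper intervals are lower in N440K and the 2 at the bottom, near Kcnj8 and Kcna3, are higher, and at none of the 10 do the genotypes overlap.

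Calcium channel genes held 7 of the 8 lower calls. When the channel genes were split by the start of their symbols, a split made after the values were seen, 17 of 25 calcium channel genes had 110 tested intervals. Of these 80 (72.7%) had a negative log2 fold change, against 49.5% of all tested intervals, and their median log2 fold change was -0.23 against 0.00. EdgeR called 7 of them (6.36%), all lower, where it called 1.14% of all tested intervals and 0.681% as lower. At an unadjusted p under 0.05 there were 20, of which 19 were lower, where the shares over all tested intervals were 12.7% and 6.52%. Relative to the wild type mean, the median over these intervals was -0.16, -0.22 and -0.15 (log2) in the N440K libraries, while the wild type libraries lay at -0.05, 0.01 and 0.14 relative to the mean of the other 2. The genotypes did not overlap in this measure, and without wild type replicate 3 the median log2 fold change was -0.16. By quartile of mean CPM over all tested intervals, from lowest to highest, the median of the calcium channel intervals was -0.45 over 42 intervals, -0.06 over 31, -0.26 over 18 and -0.06 over 19. All tested intervals in those quartiles had medians of -0.08, -0.04, 0.01 and 0.06. The size of the change did not follow signal level in order, and 5 of the 7 calls lay in the lowest quartile and 2 in the next to highest. Those 5 had met the filter on low counts through the wild type libraries, so their direction is not separate from the filter.

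The potassium and sodium channel genes are given beside these values, and no test of a difference between the groups was made. For 254 intervals of 51 potassium channel genes the median log2 fold change was -0.02, with 52.4% negative, 1 called lower and 2 called higher (1.18%, near the 1.14% of all). Within them, 17 of 24 inward rectifier intervals (median -0.30) and 16 of 24 two-pore-domain intervals (median -0.32) were negative, while the 128 intervals of voltage-gated pores had a median of 0.01. Over the 40 intervals of 8 sodium channel genes the median was -0.09, with 57.5% negative, and 9 of the 12 intervals of sodium channel beta subunits were negative (median -0.17). EdgeR, DESeq2 and limma voom called 0 of the sodium channel intervals. Beside the edgeR share of 1.14% over all tested intervals, 0 of 40 does not set these genes apart. At an unadjusted p under 0.05 edgeR gave 2 lower and 2 higher ones, where the shares over all were 6.52% and 6.16%. The sodium channel median was -0.01 without wild type replicate 2, -0.00 without wild type replicate 3 and -0.04 without N440K replicate 3. Over all 404 channel intervals the median was -0.08, and -0.03 without wild type replicate 3.

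**Figure D3:**
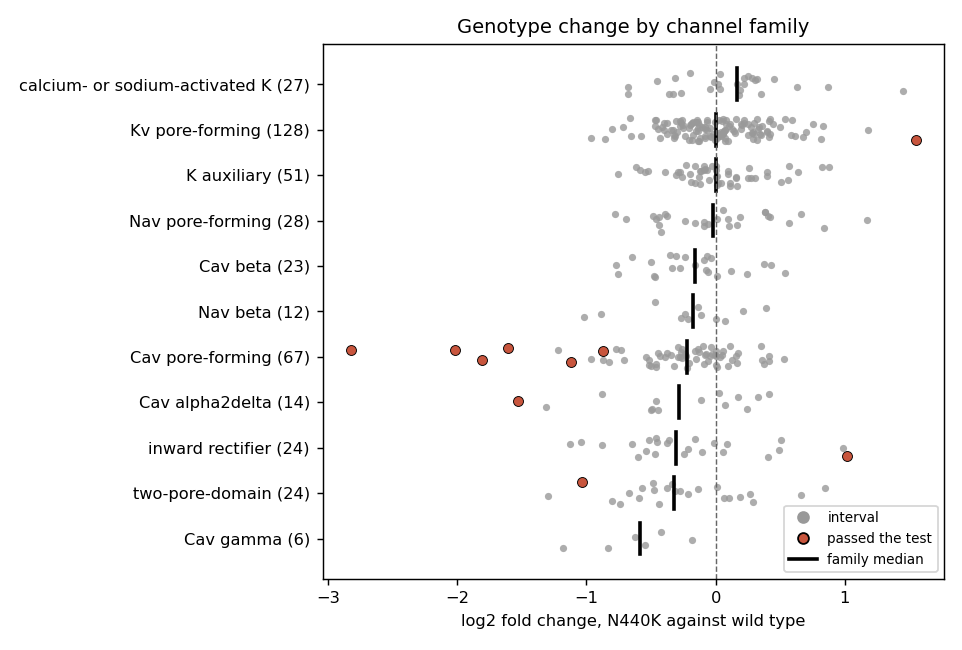
Log2 fold change (x axis, N440K against wild type) of each tested channel interval, grouped by channel family with the number of intervals in brackets; bars mark family medians and ringed red points the 10 intervals that passed the edgeR test. The lowest medians are those of Cav gamma (-0.58), two-pore-domain (-0.32) and inward rectifier genes (-0.30), and the highest that of calcium- or sodium-activated potassium channels (0.17).

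Pore-forming calcium channel subunits form the channel itself and open with voltage. EdgeR called 6 of their 67 intervals, all lower, against 0.681% of all tested intervals called lower, and 73.1% of the 67 were negative, against 49.5% of all. The largest fold was in Cacna1e, which encodes the pore of the R-type channel. Its interval chr1:154816779-154816979 had 8.05, 10.7 and 6.01 CPM in the wild type libraries and 1.66, 0.61 and 1.04 CPM in the N440K libraries, which are 13, 26 and 14 reads against 3, 1 and 2. All N440K libraries lie far below the wild type ones. The log2 fold change was -2.82 ± 0.54 (SE), a 7.08-fold drop (edgeR adjusted p = 0.00157, and 0.0608 without wild type replicate 2). The next interval, chr1:154817030-154817230, had 9.91, 9.47 and 6.44 CPM in wild type and 2.77, 2.44 and 1.04 CPM in N440K, a 4.05-fold drop (edgeR adjusted p = 0.0119). That call was lost without wild type replicate 1, wild type replicate 2 or N440K replicate 3 (adjusted p up to 0.105). These neighbours are not independent, and the other 3 Cacna1e intervals had log2 fold changes from -0.24 to -0.08, so the drop lay at 1 place in a gene of 494 kb.

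Cacna1a encodes the pore of the P/Q-type channel, which drives transmitter release at many synapses, and it had 14 tested intervals, all in the gene body. The interval chr8:84542549-84542749 had 17.3, 21.8 and 24.5 CPM in wild type and 9.41, 8.54 and 11.5 CPM in N440K libraries, which do not overlap. The log2 fold change was -1.12 ± 0.25 (SE; edgeR adjusted p = 0.00829, limma voom 0.0242, DESeq2 0.284), and the edgeR call was lost without wild type replicate 3 or N440K replicate 1 (adjusted p up to 0.0634). A second interval, chr8:84521067-84521267, had 22.3, 28.8 and 18.0 CPM in wild type and 10.5, 11.6 and 15.6 CPM in N440K. It passed by less (edgeR adjusted p = 0.0445), and leaving out wild type replicate 1 or 2 or N440K replicate 1 or 2 ended the call, with adjusted p up to 0.297, as did testing without a filter on low counts.

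The 2 called Cacna1a intervals lay in the same stretch. Within chr8:84520485-84567927, a stretch of 47.4 kb singled out after its values were seen, 8 intervals all had negative log2 fold changes, from -1.22 to -0.54. Their summed signal was 88.6, 97.2 and 97.9 CPM in the wild type libraries and 48.7, 43.9 and 60.9 CPM in the N440K libraries. By contrast 5 intervals near the upper end of the gene, within chr8:84638050-84639801, had log2 fold changes from -0.09 to 0.10. There the sums were 69.4, 92.6 and 84.1 CPM in wild type and 73.6, 77.5 and 96.3 CPM in N440K, which overlap. The remaining interval, chr8:84357833-84358033, had a log2 fold change of -0.04. A difference between the stretches was not tested. Strand and start site of this gene were not in the tables used, so neither stretch can be placed relative to its promoter.

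Cacna1b and Cacna1g had 1 called interval each. Cacna1b encodes the pore of the N-type channel, and its interval chr2:24605203-24605403 had 7.44, 10.3 and 9.44 CPM in wild type and 2.21, 2.44 and 4.16 CPM in N440K libraries. This 3.05-fold drop passed the test (edgeR adjusted p = 0.0277), and the call was lost without wild type replicate 2 or 3 or N440K replicate 1 or 2 (adjusted p up to 0.149). The strongest Cacna1b interval, chr2:24747979-24748179, had 47.7, 48.6 and 52.8 CPM in wild type against 55.4, 51.9 and 45.8 CPM in N440K, which overlap. Cacna1g encodes a low-threshold T-type pore. Its interval chr11:94424452-94424652 had 6.82, 8.23 and 8.58 CPM in wild type and 1.66, 1.83 and 3.12 CPM in N440K, with no overlap (log2 fold change -1.81 ± 0.45, SE; edgeR adjusted p = 0.0268). That call held only without N440K replicate 3 among the 6 settings that leave out a library (adjusted p 0.048 there and up to 0.150 in the others), and it was also lost with loess offsets.

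Cacna1d, which encodes an L-type pore, had the most tested intervals of any channel gene, 29, all in its gene body. None was called by edgeR, DESeq2 or limma voom, and 2 had an unadjusted edgeR p under 0.05, where the edgeR shares over all tested intervals were 1.14% and 12.7%. The summed signal of the 29 was 392.8, 391.1 and 419.8 CPM in wild type and 372.7, 369.7 and 400.8 CPM in N440K libraries, which overlap. The log2 fold change of the sum was -0.07 ± 0.06 (SE, edgeR adjusted p = 0.632). Negative values were found at 19 of the 29, and the median over the 29 intervals was -0.20.

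**Figure D4:**
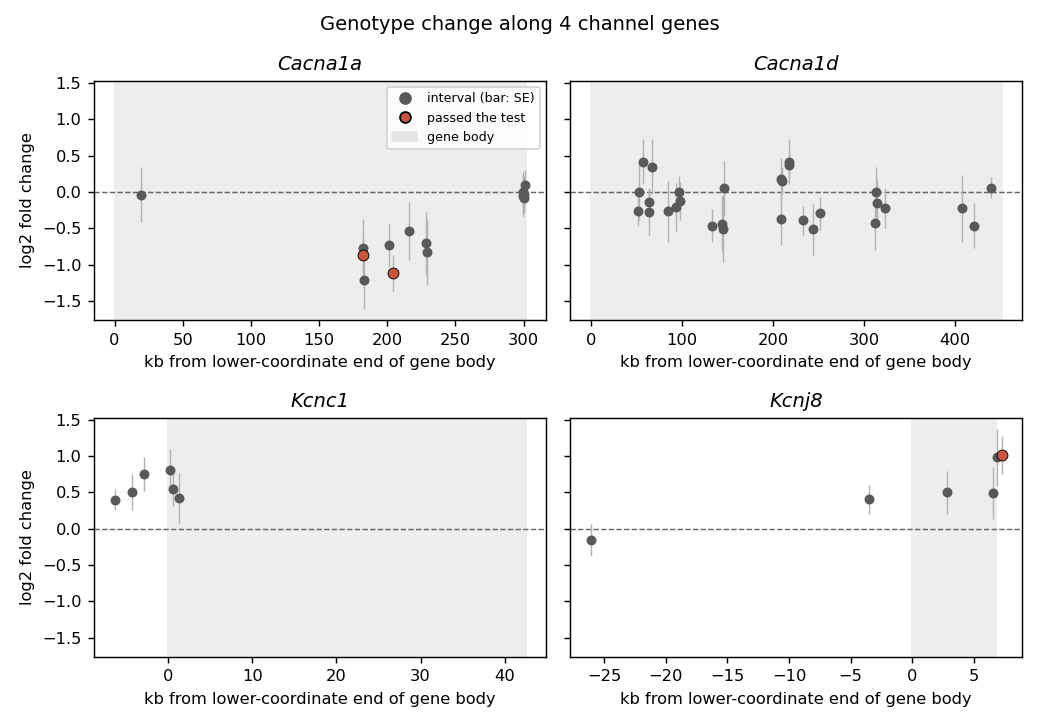
Log2 fold change with its SE (y axis) of each tested interval of 4 channel genes, against the distance in kb from the end of the gene body with the lower coordinate (x axis); grey marks the gene body and ringed red points passed the edgeR test. At Cacna1a 8 neighbouring intervals lie between -1.22 and -0.54 while those near the upper end are between -0.09 and 0.10; 19 of the 29 Cacna1d intervals lie below 0 and all 6 Kcnc1 intervals lie above 0.

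Auxiliary calcium channel subunits had median log2 fold changes of -0.28 (alpha2delta), -0.16 (beta) and -0.58 (gamma). For the alpha2delta subunits, which help carry channels to the surface, 8 of 14 intervals were negative and 1 passed, in Cacna2d4. That interval, chr6:119330696-119330896, also lies inside Lrtm2 and cannot be given to 1 of the genes. It had 9.29, 7.82 and 10.7 CPM in wild type and 4.98, 3.66 and 1.04 CPM in N440K, with no overlap. The 2.88-fold drop was close to the threshold (edgeR adjusted p = 0.0445) and passed only without N440K replicate 1 among the settings that leave out a library (adjusted p up to 0.288), and it was lost with loess offsets. Beta subunits had 17 of 23 intervals negative and 0 called by edgeR, DESeq2 or limma voom; 3 had an unadjusted edgeR p under 0.05, all lower, where 12.7% of all tested intervals did in either direction. Gamma subunits had 6 of 6 negative, 2 of them at an unadjusted edgeR p under 0.05 and 0 called by any of these tools.

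Among potassium channels, 1 interval was lower and 2 were higher. Kcnk12 encodes a two-pore-domain subunit, and its interval chr17:87746307-87746507 had 21.7, 16.5 and 16.7 CPM in wild type and 7.20, 6.10 and 12.5 CPM in N440K libraries. The genotypes do not overlap, and the drop was 2.05-fold (edgeR adjusted p = 0.0342). That call held only without N440K replicate 3 (adjusted p up to 0.180 without another library). Another Kcnk12 interval, at chr17:87773610-87773810, had 17.3, 15.2 and 17.6 CPM in wild type and 21.0, 21.4 and 12.0 CPM in N440K, which overlap. The third, chr17:87745972-87746172, had a log2 fold change of -0.44 (edgeR adjusted p = 0.660). Summed over the 3 intervals, Kcnk12 had 44.6, 42.8 and 43.4 CPM in wild type and 37.7, 32.9 and 29.1 CPM in N440K, with no overlap, and the sum did not pass the test (log2 fold change -0.39 ± 0.16, SE; edgeR adjusted p = 0.180).

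Kcnj8 encodes the pore of an ATP-sensitive inward rectifier, known from vascular muscle. Its interval chr6:142572004-142572204 lies 0.49 kb before the gene and just beyond the promoter window printed above. It had 11.8, 6.59 and 11.2 CPM in wild type and 22.7, 14.6 and 20.8 CPM in N440K libraries, all of the latter being higher. The rise was 2.02-fold (edgeR adjusted p = 0.0288, limma voom 0.0467), and the edgeR call was lost without wild type replicate 2, N440K replicate 1 or N440K replicate 3 (adjusted p up to 0.205). The interval in capitals in the printed sequence, chr6:142571620-142571820, had 3.72, 4.53 and 3.43 CPM in wild type and 8.86, 6.71 and 7.81 CPM in N440K. Its log2 fold change of 0.99 did not pass (edgeR adjusted p = 0.243). The genotypes do not overlap there, but the interval met the filter on low counts through the N440K libraries alone. That lack of overlap is therefore not separate from the filter.

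The other rise was 69.8 kb from Kcna3, at chr3:106966311-106966511. Signal there was 3.10, 2.88 and 3.43 CPM in wild type and 12.7, 8.54 and 6.77 CPM in N440K libraries, which do not overlap. The rise of 2.93-fold (edgeR adjusted p = 0.0325) came from 5, 7 and 8 reads in wild type and was lost without any 1 library but N440K replicate 3 (adjusted p up to 0.288). EdgeR, DESeq2 and limma voom called 0 of the 4 intervals inside the Kcna3 gene body, and 0 had an unadjusted edgeR p under 0.05. Their log2 fold changes ran from -0.26 to 0.08. The edgeR shares over all tested intervals were 1.14% and 12.7%, so 0 of 4 does not set them apart.

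Just outside the threshold were 6 intervals. Kcnma1 encodes the large-conductance channel opened by both voltage and calcium, and its intervals chr14:23458617-23458817 and chr14:23465317-23465517 had log2 fold changes of 0.87 and 1.45 (edgeR adjusted p = 0.0505 and 0.0776). The first had 14.9, 7.82 and 14.6 CPM in wild type and 21.0, 18.3 and 27.1 CPM in N440K, which do not overlap. The second met the filter on low counts through the N440K libraries alone, so its direction is not separate from the filter. Higher values that missed were also those at Kcnc1 (0.76; edgeR adjusted p = 0.0999) and Kcnq1 (1.18; adjusted p = 0.106), both voltage-gated potassium channel genes. Lower values that missed were those at Kcnk13 (-1.30, edgeR adjusted p = 0.0974), a two-pore-domain gene, and at Cacna2d1 (-1.31, adjusted p = 0.101). The Cacna2d1 interval could have met the filter through wild type alone.

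Summing the counts of a gene's intervals gave 1 value per gene and library. Of the 76 channel genes with a tested interval, 7 passed (9.21%), where 3.45% of all 13605 genes did (edgeR, adjusted p under 0.05). Lower were 4, all calcium channel genes, where the share over all genes was 2.12%, and higher were 3, all potassium channel genes, where it was 1.32%. DESeq2 called 1 of them, Kcnc1, and 1.18% of all genes, and limma voom called 6, and 3.29% of all genes. Leaving out the intervals that had passed on their own, an alternative added after seeing the data, left 4 of the 7: Cacng4, Cacna2d1, Kcnc1 and Kcnma1. These 4 had no such interval, so nothing was taken from their sums and this alternative does not test them.

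Kcnc1 encodes a fast potassium channel that lets neurons fire at high rates. Its 6 intervals summed to 106.0, 78.6 and 107.7 CPM in wild type and 133.4, 131.2 and 152.0 CPM in N440K libraries. All N440K libraries are higher, and 6 of 6 intervals had a positive log2 fold change. Of these, 5 had an unadjusted edgeR p under 0.05, where 12.7% of all tested intervals did (6.16% as higher). By edgeR, DESeq2 or limma voom 0 were called, where edgeR called 1.14% of all. Neighbouring intervals of 1 gene are not independent. The log2 fold change of the sum was 0.52 ± 0.11 (SE; edgeR adjusted p = 0.00366, DESeq2 0.0385, limma voom 0.00361), and the edgeR value was 0.0575 without wild type replicate 2. One of these intervals, chr7:46396328-46396528, covers the capitals of the Kcnc1 sequence above. It had 9.91, 6.59 and 9.01 CPM in wild type and 13.3, 16.5 and 14.6 CPM in N440K, with no overlap.

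The other higher sums were those of Kcnma1 and Kcnj8. Kcnma1 had 17.3, 10.3 and 18.0 CPM in wild type and 30.5, 25.02 and 34.4 CPM in N440K libraries over 2 intervals in a gene body of 713 kb, with log2 fold change 1.00 ± 0.22 (SE; edgeR adjusted p = 0.00493, and 0.0625 without wild type replicate 2). Kcnj8 had 63.2, 70.0 and 69.5 CPM in wild type and 103.5, 87.2 and 87.4 CPM in N440K over 6 intervals, with log2 fold change 0.45 ± 0.12 (SE; edgeR adjusted p = 0.0208, and 0.154 without N440K replicate 1). At neither gene do the genotypes overlap. Both sums include a weak interval that met the filter on low counts through N440K alone. At Kcnma1 it is the second interval given above, and at Kcnj8 that of the printed sequence. The direction of these sums is therefore not fully separate from the filter.

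Lower sums were found at Cacng4, Cacna2d1, Cacna1a and Cacna1e. Cacng4 encodes a gamma subunit that also acts on AMPA-type glutamate receptors, and its 5 intervals summed to 48.3, 41.6 and 55.8 CPM in wild type and 34.3, 25.6 and 29.2 CPM in N440K. All 5 were negative, and the log2 fold change of the sum was -0.70 ± 0.16 (SE; edgeR adjusted p = 0.00933, and up to 0.0753 without wild type replicate 3 or N440K replicate 2). Cacna2d1 had 2 neighbouring intervals about 2 kb outside the gene, which summed to 16.1, 19.8 and 15.9 CPM in wild type and 7.75, 6.71 and 9.89 CPM in N440K. Its log2 fold change was -1.08 ± 0.27 (SE, edgeR adjusted p = 0.0163). EdgeR kept the call without each library in turn (adjusted p up to 0.0331), while DESeq2 did not call it (0.135). Both intervals are weak in N440K and could have met the filter on low counts through wild type alone. The direction of this call may therefore not be separate from the filter.

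At Cacna1a the sum over 14 intervals was 164.2, 195.6 and 188.4 CPM in wild type and 127.4, 128.1 and 163.4 CPM in N440K, where the highest N440K library nearly reaches the lowest wild type one. The log2 fold change was -0.39 ± 0.10 (SE; edgeR adjusted p = 0.0141, and up to 0.0808 without wild type replicate 3 or N440K replicate 1). At Cacna1e the sum was 49.6, 66.7 and 47.64 CPM in wild type and 47.62, 31.1 and 32.3 CPM in N440K, so the nearest libraries of the genotypes all but meet. Its log2 fold change was -0.57 ± 0.16 (SE; edgeR adjusted p = 0.0442). That call was lost without wild type replicate 1 or 2 or N440K replicate 2 or 3 (adjusted p up to 0.305) and by limma voom (0.0504).

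**Figure D5:**
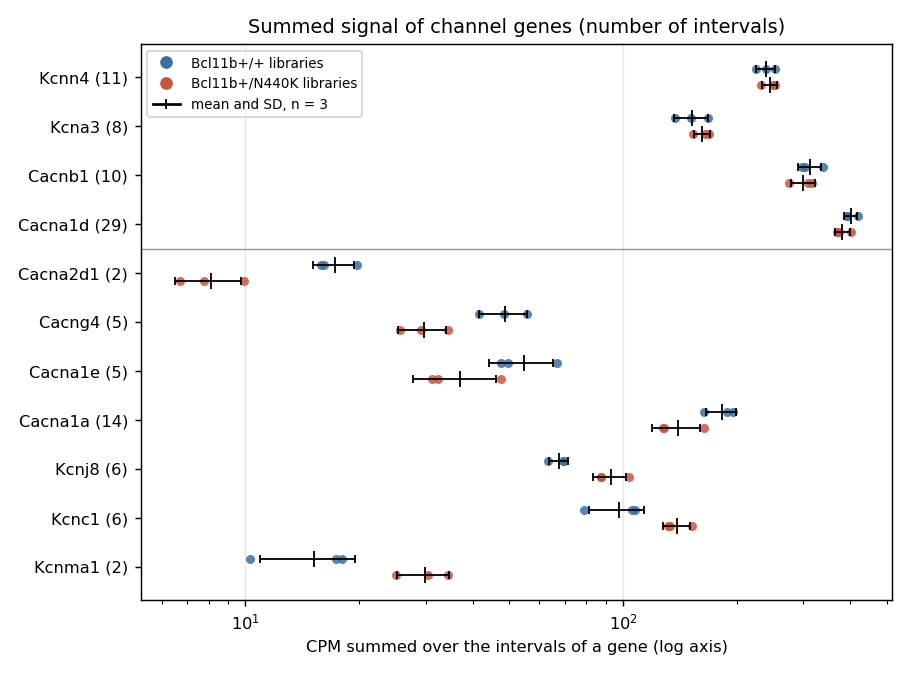
CPM summed over the tested intervals of a gene (x axis, log scale), 1 point per library, with the mean and SD of 3 libraries per genotype and the number of intervals in brackets. Below the line are the 7 genes that passed the edgeR test on sums, 4 lower and 3 higher in N440K; above it 4 channel genes of T cells or with many intervals whose genotypes overlap.

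The remaining genes with the most intervals showed overlapping sums. Kcnip1, which encodes a calcium-binding partner of potassium channels, had 21 intervals that summed to 312.3, 303.8 and 364.8 CPM in wild type and 329.5, 331.9 and 329.0 CPM in N440K (log2 fold change 0.01 ± 0.07, SE; edgeR adjusted p = 0.963). Kcng3, a silent subunit that modifies other potassium channels, had 17 intervals (0.04 ± 0.08; edgeR adjusted p = 0.887), and Kcnq1 had 15 (0.04 ± 0.10; edgeR adjusted p = 0.897). Kcna2, with 14 intervals, had sums of 293.1, 278.3 and 322.8 CPM in wild type and 330.0, 312.4 and 313.9 CPM in N440K (0.10 ± 0.07; edgeR adjusted p = 0.550).

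Other ion channel and calcium transport genes of T cells were read beside these. Of 41 listed genes, 34 had 269 tested intervals, and edgeR called 3, all higher in N440K. That share, 1.12%, is near the 1.14% of all tested intervals. Limma voom called 3 and DESeq2 0. Orai2 encodes a store-operated calcium channel subunit, and its interval chr5:136155442-136155642 had 4.96, 7.41 and 7.73 CPM in wild type and 21.0, 14.6 and 16.7 CPM in N440K libraries. Clcn3, a chloride transporter gene, had 47.1, 42.4 and 36.9 CPM in wild type and 63.1, 64.1 and 56.2 CPM in N440K at chr8:60983283-60983483. Near Atp2a3, which encodes a calcium pump of the endoplasmic reticulum, the interval chr11:72953946-72954146 had 22.3, 24.3 and 31.8 CPM in wild type and 43.2, 36.6 and 47.9 CPM in N440K. At none of the 3 do the genotypes overlap. The median log2 fold change over the 269 intervals was 0.08, opposite in sign to that of the calcium channel genes, a difference that was not tested.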

How the data were processed

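Chromatin was precipitated from thymocytes with an antibody against Bcl11b, per the labels' protocols. Tools in the submitters' processing notes are the aligner Bowtie2 2.3.5, the read trimmer fastp 0.20.0, the peak caller MACS2, edgeR 3.38.2, bedtools and SAMtools 1.9, with the build mm10. The sources used here do not say if MACS2 saw single or pooled libraries. The authors deposited whole-number counts of reads in 93708 intervals and a table of CPM for 63098 of them. The deposited CPM values gave whole reads for 100% of values (tolerance 0.01), and edgeR on those reads called the same number of intervals, 720 in all and 10 at channel genes.

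The counts were filtered with filterByExpr by group, scaled with TMM and tested with edgeR 4.0.16 (quasi-likelihood, two-sided, Benjamini-Hochberg adjustment over all tested intervals or genes, threshold 0.05) in R 4.3.3, with genotype as the only term. Counts were also summed over the tested intervals of each gene and tested in the same way. Total counts ran from 1787899 to 2661343 per library; pairs of libraries of 1 genotype differed by a chi-square per degree of freedom of 1.24 to 1.42, and pairs across genotypes by 1.55 to 1.77, more than sampling noise. TMM centres the changes near 0, so a general change of binding could not be measured. In data simulated from these libraries over 63098 intervals, each fold was given to 50 intervals, of which edgeR recovered 4 at 1.5-fold, 22 at 2.0-fold, 40 at 3.0-fold and 47 at 4.0-fold, and it made 9 false calls.

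Genes were those of RefSeq on GRCm38.p6, and an interval tied between gene bodies counted for each of them. Family membership followed the symbols. Named were every called channel interval, the 10 strongest in wild type, the strongest of each gene on a list of 22 channel genes of T cells, the 6 with the smallest p among those not called, the 5 genes with the most intervals, and the genes called on sums. The single values of 1 named interval are not reported here; the counts include it. The members and lists were chosen with earlier results of these data known. Alternatives were DESeq2 1.42.0, limma 3.58.1 (voom), total counts, loess offsets (span 0.3), other filters, an adjusted p of 0.01, other distances, a replicate block and leaving out each library. No sequence of the intervals themselves was used.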

Additional observations from a re-analysis of the deposited data

How the results depend on the processing

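The channel interval count of 10 was 0 with DESeq2, 2 with limma voom, 4 among intervals at or above the median CPM, 2 at an adjusted p of 0.01, and 2 to 7 when 1 library was left out (2 without wild type replicate 2, 7 without N440K replicate 3). It was 8 to 10 with total counts, loess offsets, no filter, a 10 kb limit or gene bodies only. Of the 10 named intervals that passed, 0 passed with DESeq2, 2 with limma voom and 1 to 7 when 1 library was left out. The gene count of 7 on sums was 1 with DESeq2, 3 at an adjusted p of 0.01, and 4 to 7 when 1 library was left out (4 without wild type replicate 2). It was 4 without the intervals called alone, and those 4 genes had no such interval. The median channel log2 fold change of -0.08 stayed between -0.11 and -0.03 when 1 library was left out, and the share near gene ends was 43.8% within 5 kb in place of 22.5% within 1 kb. The causes were not tested.

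Little sign of pairing by replicate number was seen: deviations of libraries with the same number correlated at -0.004 to 0.058, others at -0.047 to 0.017. The labels do not say if libraries with the same number were prepared together, and these correlations cannot decide it. With the replicate number as a replicate block, edgeR called 8 channel intervals, 7 of them among the 10, and the same 7 genes. The calls lost under it were those at Cacna2d4 (adjusted p = 0.0524), Cacna1a 84521067 (0.0529) and Kcna3 106966311 (0.0539).

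Among the named intervals reported here, only intervals that had not passed changed sign. Their main log2 fold changes ran from -0.24 (Cacna1e 154786365) to 0.11 (Cacna1s 136116254). With loess offsets the log2 fold change was -0.045 at Cacna1b 24747979, -0.035 at Kcna3 107036535, -0.013 at Cacna2d2 107521384 and -0.014 at Cacna1d 30479450. With limma voom it was 0.0023 at Kcna2 107090527 and -0.0017 at Cacnb3 98631557, with DESeq2 0.0025 at Scn4b 45146316, and with total counts -0.0063 at Cacnb3. When 1 library was left out it ran from -0.026 to 0.12 at Cacna1b 24747979, -0.00099 to 0.14 at Cacna1d, -0.49 to 0.075 at Cacna1e 154786365, -0.032 to 0.30 at Cacna1s 136116254 and -0.10 to 0.17 at Cacna2d2. It ran from -0.083 to 0.18 at Cacnb3, -0.17 to 0.11 at Cacnb4 52571655, -0.050 to 0.052 at Kcna2 107090212, -0.066 to 0.060 at Kcna2 107090527 and -0.12 to 0.17 at Kcna3. At Kcnab2 152448626 it ran from -0.30 to 0.088 and at Scn4b from -0.24 to 0.13. Simulated 1.5-fold and 2.0-fold changes were mostly missed at this depth.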
